A study of Mus musculus with 8 samples.

Results

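The combined response of mouse macrophages to interferon beta and then lipopolysaccharide was compared with saline, in 4 of the 8 libraries of the series: 2 labelled LPS+IFNb and 2 labelled Saline. They were chosen by these labels alone. All 8 came from male C57BL6 mice aged 7 weeks that were stimulated in the peritoneum. The LPS+IFNb mice had 4 h of interferon beta (IFNb, a type I interferon) and then 4 h of lipopolysaccharide (LPS, a component of the outer membrane of Gram-negative bacteria). The Saline mice had saline for 4 h. The other 4 libraries, 2 with LPS alone for 4 h and 2 with IFNb alone for 4 h, served to show where the combined response differed from either agent. They also entered the model behind every p-value, the choice of genes tested and the rescaling described below. The LPS+IFNb cells were thus collected later after the first agent than those of all the other groups, saline included. No library had saline for the longer time, or IFNb followed by saline, so the treatment, or the addition of LPS to IFNb, and the added time cannot be told apart. Whether replicate libraries are from different mice or from pools, and how the macrophages were isolated, is not in the labels. P-values therefore measure the spread between libraries, which may be technical.

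LPS is sensed by TLR4 with its co-receptors. The adaptor MyD88 leads from there to NF-kB and AP-1 and to inflammatory cytokines, while the adaptor TRIF leads to IRF3 and to the interferon beta gene itself. Secreted interferon binds IFNAR1 and IFNAR2, and the kinases JAK1 and TYK2 then activate STAT factors and IRF9, which bind interferon-stimulated response elements (ISRE) in antiviral genes. Macrophages primed with interferon are known to respond to LPS more strongly in some genes, among them the nitric oxide synthase gene.

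The files held TPM, the usual abundance unit of RNA sequencing, which is corrected for transcript length and sums to the same total in each library, so that the number of reads behind a value is unknown. Differences are given as LPS+IFNb minus saline on the scale of log2(TPM + 1), with the standard error (SE) of the linear model, which was fitted in limma to 13009 genes with 2 libraries per group. A gene is called higher or lower, or is said to have risen or fallen, at an adjusted p under 0.05. Of the 13009 genes 9022 were called (69.4%), 1980 higher (15.2%) and 7042 lower (54.1%), and for 10711 (82.3%) the libraries of the groups did not overlap. As deposited, the rises were fewer and larger. A rise of at least 4-fold was seen for 630 genes and one of at least 16-fold for 186, against 599 and 8 genes for falls of those sizes.

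How many genes fell depended on the scale, because the total of TPM is fixed. The genes called higher made up 11.5% and 11.6% of all TPM in the saline libraries and 41.1% and 41.3% in the LPS+IFNb libraries, and the genes called lower went from 63.0% and 62.7% to 36.1% and 35.8%. The median difference over all genes was -0.62. Median-ratio scaling, which sets the middle gene of each library to the same level, brought it to 0.01, a shift of 0.62, and called 52.6% of genes, 3567 higher (27.4%) and 3274 lower (25.2%). Values with this scaling are called rescaled below. Rescaled, 990 genes rose at least 4-fold and 267 at least 16-fold, against 173 and 4 genes for falls of those sizes. All 1980 genes called higher were also called higher after rescaling, and 3274 of the 7042 called lower were also called lower. Since rescaling moved the differences upward, a rise could hardly be lost by it. That rises were called at both scalings is thus no added support for them. Lists of genes are described by how many of their tested members were called, to be read against these percentages, and by their median beside -0.62 (rescaled 0.01). Lower calls are given with the rescaled value, since many of them depended on the scale. Rescaling takes the middle gene as unchanged, and TPM with its fixed total cannot show whether it was. Which scale is nearer to the amounts per cell was not tested.

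**Figure D1:**
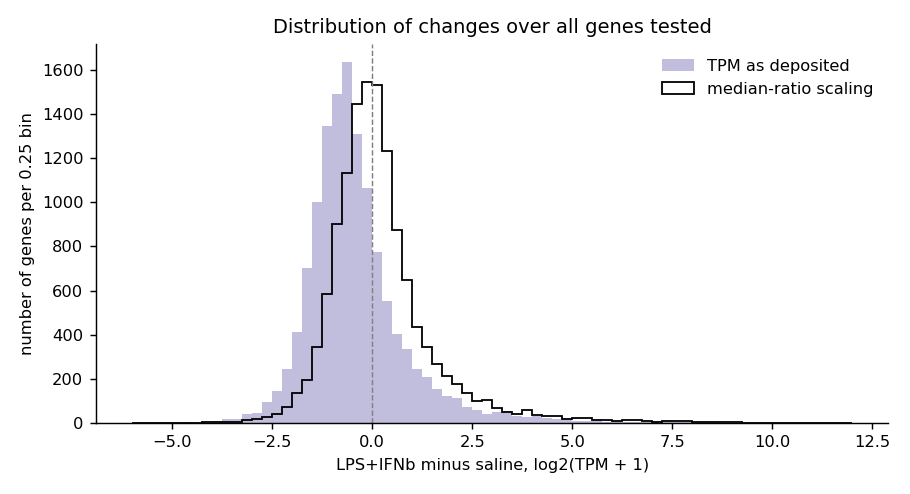
Number of genes (vertical axis) by the difference between LPS+IFNb and saline in log2(TPM + 1) (horizontal axis), for the 13009 genes tested, as deposited (filled) and after median-ratio scaling (line). The bulk of genes lies below 0 as deposited (median -0.62) and around 0 after rescaling (median 0.01), with a long tail of rises in both.

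Markers of macrophages were high in all 4 libraries. Of 10 macrophage markers tested 2 rose and 4 fell (rescaled 6 and 2). The lysozyme gene Lyz2 stood at 17557 and 15340.0 TPM in saline and 10259.8 and 10160.5 TPM with LPS+IFNb, and Adgre1, which encodes the F4/80 antigen, at 287 and 243 TPM in saline and 198 and 241 TPM with LPS+IFNb. Of the genes that mark resident large peritoneal macrophages, Gata6 and Timd4 were low in saline while the tetraspanin gene Cd9 was high. Cd9 stood at 1237 and 1102 TPM and then 753 and 713 TPM (rescaled 0.06, adjusted p = 0.677). It was the main part of the summed TPM of 10 tested markers of these cells. That sum was 1302 and 1196 in saline and 835 and 768 with LPS+IFNb. Of the 10 markers 3 rose and 3 fell (rescaled 3 and 0), with a median of -0.38 (rescaled 0.15). Gata6, the transcription factor of these cells, was at 1.13 and 1.75 TPM in saline and 1.30 and 0.995 TPM with LPS+IFNb, so that its groups overlapped, and the phosphatidylserine receptor Timd4 at 0.427 and 0.549 TPM in saline and 3.24 and 2.75 TPM with LPS+IFNb. The summed TPM of 13 B cell markers, 12 of them tested, was 170.1 and 186 in saline and 113 and 107 with LPS+IFNb, with 6 of them lower (rescaled 1). That of 17 T and NK cell markers, 13 of them tested, was 558 and 466 TPM and then 266 and 316. Most of it was the interleukin 7 receptor gene Il7r (501 and 415, then 235 and 274 TPM), while Cd3e was at 2.73 and 2.36, then 1.19 and 1.28 TPM. The neutrophil sum over 14 markers was 309 and 401, then 339 and 270.1. Of these 8 were tested and 6, Ly6g among them, were below the filter of 1 TPM in 2 libraries. Of 12 monocyte and small peritoneal macrophage markers tested 5 rose and 2 fell. The sum of all 13 listed went from 387 and 453 to 962 and 893. Of those that rose, the monocyte gene Plac8 went from 24.7 and 20.5 to 204 and 271 TPM and was higher still with IFNb alone (mean 346 TPM). The sum of 12 dendritic cell markers, 11 of them tested, went from 134 and 131 to 955 and 919. The interferon-induced tetherin gene Bst2 (98.8 and 82.5, then 859 and 814 TPM) was its main part. Mesothelial and fibroblast markers differed more within than between groups (47.3 and 136 in saline, 99.2 and 46.8 with LPS+IFNb), with none of 10 called. The part of other cells in the results was not tested, and in bulk RNA fewer cells of a type and less RNA per cell cannot be told apart.

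The 12 largest rises were those of 2 chemokines, 2 cytokines and 8 interferon-induced genes. Cxcl10, the chemokine that draws activated T cells through CXCR3, went from 1.95 and 2.31 TPM in the saline libraries to 5240.5 and 4489.9 TPM in the LPS+IFNb libraries, a difference of 10.60 ± 0.12 (adjusted p = 8.25e-08). The monocyte chemokine Ccl7 went from 1.005 and 3.52 to 1921 and 1395 TPM (9.09 ± 0.39, adjusted p = 6.59e-06). Both chemokines were low in saline and among the abundant transcripts after the combined treatment. Il1b, which encodes the precursor of interleukin 1 beta, went from 5.28 and 7.06 to 2093 and 2152 TPM (8.22 ± 0.26, adjusted p = 1.82e-06), and Il27, the p28 subunit of interleukin 27, from 0.965 and 0.421 to 404 and 459.8 TPM (8.01 ± 0.18, adjusted p = 5.96e-07). The antiviral enzyme viperin, encoded by Rsad2, had the highest level of the 12: 20.8 and 20.3 TPM in saline and 6131 and 6102 TPM with LPS+IFNb (8.15 ± 0.10, adjusted p = 8.29e-08).

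The tetratricopeptide genes Ifit1 and Ifit2, whose proteins bind foreign RNA or limit its translation, went from 5.55 and 4.59 to 2608 and 2039 TPM and from 7.37 and 5.46 to 2997 and 2836 TPM. Isg15, a ubiquitin-like modifier, went from 13.3 and 8.20 to 3338 and 3023 TPM (8.11 ± 0.20, adjusted p = 6.72e-07), and Cmpk2, a mitochondrial nucleotide kinase next to Rsad2 in the genome, from 4.84 and 4.85 to 1998 and 1876 TPM. The last of the 12 were Ifi205, Trim30c and Ifit1bl1, members of clustered families with close paralogs. Ifi205 went from 7.65 and 8.95 to 2949 and 3128 TPM, Trim30c from 0.843 and 0.828 to 583 and 579 TPM and Ifit1bl1 from 1.96 and 1.94 to 784 and 792 TPM. Pseudoalignment divides reads between such paralogs, so the split within each family is uncertain. Only genes whose libraries did not overlap between the 2 groups could be among the 12, so that separation was set by the choice.

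The 12 differed in how they stood beside each agent alone. Il1b was higher with LPS alone (mean 5935 TPM) and low with IFNb alone (4.23 TPM), and LPS+IFNb minus LPS was -1.48 ± 0.26 (adjusted p = 0.00678, rescaled -1.21). Ifit2, Ifit1bl1 and Cmpk2 were higher with IFNb alone (4069.7, 1605 and 2855 TPM) than with LPS alone (419, 21.7 and 446 TPM), and the combined level lay between the means of the single agents. Cxcl10, Ccl7, Ifi205, Trim30c, Isg15 and Il27 were called above saline, above LPS and above IFNb.

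**Figure D2:**
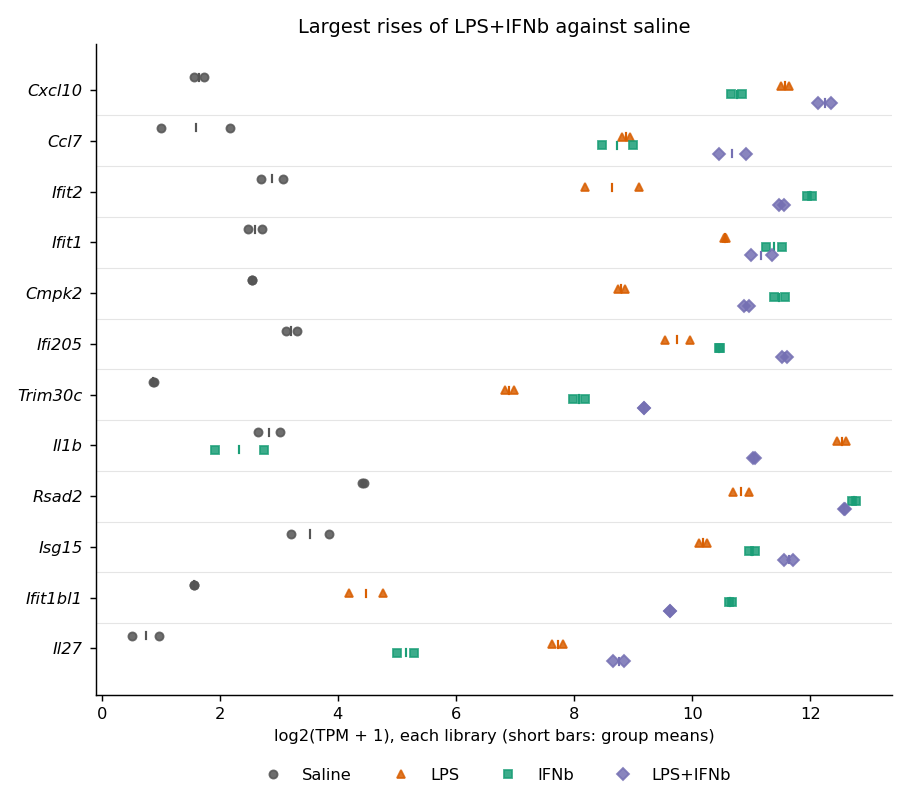
Level in each of the 8 libraries (horizontal axis, log2(TPM + 1), points by group, short bars at group means) of the 12 genes with the largest rise in LPS+IFNb against saline. The saline libraries lie far to the left for every gene, and Il1b differs from the other 11 in that its IFNb libraries lie with saline. The choice of genes required no overlap between saline and LPS+IFNb.

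The promoters of 6 genes are printed to show the letters of the elements that the LPS and interferon pathways are known to use, beside the CG-rich promoter of a gene that fell. Each sequence is the 250 bases before the start of transcription in RefSeq (GRCm38.p6), read 5′ to 3′ on the strand of the gene. Capitals mark ISRE in Isg15 and Ifit1, ISRE and kappa B elements (the sites that NF-kB binds) in Cxcl10, kappa B elements in Ifnb1, a gamma-activated site (GAS, which STAT dimers bind) in Hamp, and CG dinucleotides in Sesn1, whose values follow with the falls. The letters searched, on both strands, were GAAA, any 2 bases and GAAA for ISRE, GGG, any 5 bases and CC for kappa B, and TTC, any 3 bases and GAA for GAS.

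Cxcl10, chr5:92348890-92349139, minus strand: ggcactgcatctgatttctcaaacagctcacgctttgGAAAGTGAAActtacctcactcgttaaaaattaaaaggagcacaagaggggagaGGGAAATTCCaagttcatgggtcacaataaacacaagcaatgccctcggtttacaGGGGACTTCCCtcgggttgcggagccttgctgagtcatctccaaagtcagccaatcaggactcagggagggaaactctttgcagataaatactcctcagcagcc
Isg15, chr4:156200819-156201068, minus strand: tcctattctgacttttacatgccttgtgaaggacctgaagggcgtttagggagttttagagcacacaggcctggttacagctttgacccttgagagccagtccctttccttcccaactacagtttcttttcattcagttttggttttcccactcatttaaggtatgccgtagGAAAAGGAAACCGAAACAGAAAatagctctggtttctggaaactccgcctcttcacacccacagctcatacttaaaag
Ifit1, chr19:34640639-34640888, plus strand: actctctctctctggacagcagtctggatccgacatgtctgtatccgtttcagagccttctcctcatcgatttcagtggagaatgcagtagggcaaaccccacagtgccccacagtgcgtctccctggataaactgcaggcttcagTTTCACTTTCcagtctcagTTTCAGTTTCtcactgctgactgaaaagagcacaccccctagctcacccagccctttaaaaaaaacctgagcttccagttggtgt
Ifnb1, chr4:88522795-88523044, minus strand: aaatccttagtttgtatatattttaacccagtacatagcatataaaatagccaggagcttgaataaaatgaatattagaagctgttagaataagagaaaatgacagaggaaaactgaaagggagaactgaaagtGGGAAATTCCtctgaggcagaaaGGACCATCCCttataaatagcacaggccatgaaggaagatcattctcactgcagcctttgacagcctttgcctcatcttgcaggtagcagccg
Hamp, chr7:30944030-30944279, minus strand: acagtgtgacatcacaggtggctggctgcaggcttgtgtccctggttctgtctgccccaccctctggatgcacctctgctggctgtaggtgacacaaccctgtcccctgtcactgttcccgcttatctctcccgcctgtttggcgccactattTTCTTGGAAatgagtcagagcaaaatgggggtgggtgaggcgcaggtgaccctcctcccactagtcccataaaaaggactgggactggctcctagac
Sesn1, chr10:41887189-41887438, plus strand: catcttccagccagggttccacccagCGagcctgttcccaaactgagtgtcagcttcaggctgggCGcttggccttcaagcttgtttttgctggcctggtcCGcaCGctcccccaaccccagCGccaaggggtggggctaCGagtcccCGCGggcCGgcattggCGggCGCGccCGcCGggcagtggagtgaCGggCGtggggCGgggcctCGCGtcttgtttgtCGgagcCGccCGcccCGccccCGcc

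In Cxcl10 the ISRE match began 213 bases before the start and the kappa B matches 159, 104 and 103 bases before it, the last 2 overlapping each other. Isg15 held 3 overlapping ISRE matches, which began 78, 72 and 66 bases before the start. In Ifit1 the 2 ISRE matches, read on the opposite strand, began 104 and 85 bases before the start. The Ifnb1 window held 2 kappa B matches at 116 and 93 bases, and the Hamp window 1 GAS match at 97 bases. The Ifnb1 start of RefSeq lies 20 bases from that of the leading Ensembl transcript. The Sesn1 window held 24 CG dinucleotides and no ISRE match. The capitals leave out other matches to the searched letters. Over the longer promoters described next, kappa B matches numbered 5 in Sesn1, 3 in Cxcl10, 2 in Ifit1 and 2 in Ifnb1. Isg15 and Hamp held none there. Cxcl10 and Hamp each held 1 AP-1 match, also not in capitals. Kappa B letters were thus not absent from the gene that fell. A match describes the letters and shows neither binding nor a cause. The printed promoters are examples and do not stand for all large rises. Among the 12 largest rises, Cxcl10, Ifit1, Ifi205, Rsad2, Isg15 and Ifit1bl1 held ISRE letters over the longer promoters. Ifit2, Cmpk2, Trim30c and Il1b held none, and Il1b held no kappa B, GAS or AP-1 letters either. For Ccl7 and Il27 no promoter was found.

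Over all genes, RefSeq promoters of 300 bases (250 before the start and 50 after it) within 500 bases of the start of the leading transcript were found for 7322 of the 13009. ISRE letters were in 3.67% of these, in 9.43% of the promoters of genes that rose, in 19.7% at a rise of at least 4-fold and in 32.2% (37 of 115) at a rise of at least 16-fold. Genes lower at both scalings held them in 1.48%. GAS letters went the same way, from 7.16% of all promoters to 15.7% at a rise of at least 16-fold, as did AP-1 letters (TGANTCA, a palindrome), from 5.22% to 20%. The kappa B letters are loose and were in 67.9% of all promoters and 60.0% of those of genes that rose at least 16-fold. FoxO letters (GTAAACA) were in 2.55% of all promoters and 2.82% of those lower at both scalings. The ratio of observed to expected CG dinucleotides, over the same 300 bases, had a median of 0.77 over all promoters, 0.32 in genes that rose at least 16-fold and 0.79 in genes lower at both scalings, so the strongest rises were in promoters poor in CG and the falls were not. Sesn1 stood at 0.82, Cxcl10 at 0.53, Isg15 at 0.38, Ifnb1 at 0.22 and Hamp at 0.17. These shares are descriptions with no test.

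Proinflammatory cytokines rose almost without exception, 23 of 24 with none lower and a median of 3.54 (rescaled 3.94). Tnf, an early cytokine of the LPS response, went from 7.06 and 6.69 to 1284 and 1369.6 TPM (7.40 ± 0.10, adjusted p = 1.43e-07), and Il1a from 13.4 and 13.01 to 1155 and 1069.9 TPM. Il6, which drives the acute-phase response, went from 0.168 and 0.635 to 269 and 205 TPM (7.41 ± 0.25, adjusted p = 2.38e-06). Il15, a growth factor of NK and memory T cells, went from 10.1 and 10.6 to 198 and 181 TPM. Il12b, the p40 subunit shared by interleukins 12 and 23, rose less evenly: it was at 0.682 and 0.377 TPM in saline and 7.43 and 29.8 TPM with LPS+IFNb, so that the treated libraries lay far apart but above saline (3.41 ± 0.64, adjusted p = 0.00297). Against LPS alone (in all, 1400 genes higher, 10.8%, and 3129 lower, 24.1%) 7 members of the list were higher and 7 lower. After rescaling 3357 genes were called in that comparison (25.8%), 1989 higher (15.3%) and 1368 lower (10.5%), and in the list 7 were higher and 4 lower. The number of genes called lower against LPS also fell from 3129 to 1673 without LPS replicate 1, 1752 without LPS replicate 2, 1723 without LPS+IFNb replicate 1 and 1942 without LPS+IFNb replicate 2. As deposited, Il12b was among the cytokines below LPS, whose mean was 92.4 TPM (LPS+IFNb minus LPS -2.40 ± 0.64, adjusted p = 0.0284), as was Il1a (mean 2432 TPM with LPS). Il6 and Il15 were above it, with LPS means of 130.3 and 71.9 TPM. Against IFNb alone (1140 genes higher, 8.76%, and 3967 lower, 30.5%) 20 cytokines were higher and 1 lower. Rescaling gave 3211 genes in that comparison (24.7%), 1788 higher (13.7%) and 1423 lower (10.9%), and 21 higher and 1 lower in the list. Lower calls against IFNb numbered 1992 without IFNb replicate 1, 1743 without IFNb replicate 2, 2024 without LPS+IFNb replicate 1 and 2553 without LPS+IFNb replicate 2.

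Of 23 chemokines 18 rose and 1 fell, with a median of 3.79 (rescaled 4.31). The inflammatory chemokines Ccl3 and Ccl5 went from 42.5 and 44.5 to 3193 and 2718 TPM and from 46.2 and 45.6 to 2349.7 and 2549.5 TPM. Both were nearer to the LPS libraries (means 4534 and 2814 TPM) than to the IFNb libraries (112 and 87.1 TPM). The monocyte chemokine Ccl12 had the opposite order, 16.5 TPM with LPS and 233 TPM with IFNb, and stood at 377 and 305 TPM with both from 0.344 and 0.570 TPM in saline. The one chemokine that fell was Cxcl14, from 11.5 and 12.9 to 5.34 and 3.62 TPM (rescaled -0.64, adjusted p = 0.0267).

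Growth factors were mixed: 9 of 17 rose and 5 fell (rescaled 9 and 2). Csf2, the gene of GM-CSF, was listed at 0 in each saline library and reached 18.7 and 15.01 TPM with LPS+IFNb (adjusted p = 3.26e-06). The endothelin gene Edn1 went from 0 and 0.102 to 134 and 181 TPM and the activin A subunit Inhba from 1.98 and 1.75 to 61.7 and 73.6 TPM, levels near those with LPS alone (162 and 55.5 TPM). Hbegf, a ligand of the EGF receptor, reached 21.5 and 17.4 TPM from 0.769 and 1.03 TPM and was called above all 3 other groups. Among the lower calls Hgf, the hepatocyte growth factor, went from 28.3 and 20.2 to 4.20 and 6.46 TPM (rescaled -1.33, adjusted p = 0.00811). Igf1 went from 296 and 267 to 136 and 150.2 TPM, but its rescaled difference of -0.24 did not pass (adjusted p = 0.116), and that of Tgfb1 changed sign (-0.53 as deposited, rescaled 0.20).

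Antiviral interferon-stimulated genes rose in 61 of 64 cases, with a median of 4.19 (rescaled 4.82). Beside those above, the dynamin-like GTPase Mx1 went from 5.83 and 7.33 to 1049.6 and 1171 TPM (7.20 ± 0.11, adjusted p = 1.99e-07) and the exonuclease Isg20 from 4.24 and 3.54 to 547 and 518 TPM. Ifi27, at 266 and 237 TPM and then 162 and 145 TPM, was called lower as deposited and not after rescaling (0.03, adjusted p = 0.879). Against LPS alone 51 of the 64 were higher and 1 lower (rescaled 56 and 0), while against IFNb alone 9 were higher and 14 lower (rescaled 15 and 1). Their summed TPM was 52760.0 and 52790.0 in the LPS+IFNb libraries and 56270.0 and 55390.0 in the IFNb libraries, against 22090.0 and 20490.0 after LPS and 2746 and 2604 after saline.

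The interferon-induced GTPases of the GBP and IRG families, which attack the vacuoles of intracellular microbes, rose in all 17 tested cases, with a median of 5.49 (rescaled 5.98). Gbp2 went from 18.5 and 18.9 to 2009 and 1869 TPM (6.62 ± 0.07, adjusted p = 8.25e-08), Gbp7 from 4.49 and 4.56 to 286 and 298 TPM, and Ifi47 from 17.1 and 15.8 to 1230.2 and 1096 TPM. All 17 were also above LPS alone (rescaled 17), whereas 1 was above and 4 were below IFNb alone (rescaled 2 above and 1 below). Gbp5 was above IFNb alone at both scalings, at 934 and 1012 TPM from 3.38 and 3.36 TPM in saline, with means of 704 TPM with LPS and 552 TPM with IFNb.

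Of 23 genes of interferon receptors, JAKs, STATs and IRFs 16 rose and 2 fell (median 1.25, rescaled 1.83). Irf7, the factor that amplifies interferon production, went from 71.5 and 39.2 to 2597 and 2819 TPM (5.65 ± 0.25, adjusted p = 7.88e-06), and Irf1 from 37.4 and 35.5 to 558 and 651 TPM. Stat2, a subunit of the factor that binds ISRE, went from 13.3 and 13.8 to 155 and 169.9 TPM. It was below IFNb alone, whose mean was 268 TPM (LPS+IFNb minus IFNb -0.72 ± 0.08, adjusted p = 0.00149), also after rescaling (-0.38, adjusted p = 0.0244). The kinase Jak2 went from 19.8 and 20.2 to 232 and 255 TPM. The receptors moved apart: Ifnar1, a receptor subunit for IFNb itself, went from 76.5 and 86.4 to 167 and 181 TPM (1.09 ± 0.09, adjusted p = 0.000107), and Ifngr1, the ligand-binding chain of the interferon gamma receptor, from 131 and 124 to 35.97 and 39.1 TPM (-1.74 ± 0.15, adjusted p = 0.000115, rescaled -1.02). Stat6, which acts downstream of interleukin 4, was called lower as deposited (-0.75) and not after rescaling (-0.02, adjusted p = 0.853).

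Ifnb1 itself was listed at 0 in each saline library and reached 158 and 59.5 TPM with LPS+IFNb. LPS alone gave 10.9 and 10.01 TPM and IFNb alone 0.229 and 0.101 TPM. The LPS+IFNb libraries lay far apart, and the lower of them was still above every other library. LPS+IFNb was above LPS by 3.10 ± 0.40 (adjusted p = 0.00224).

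Genes of LPS sensing and Toll-like receptor signalling were split, 9 higher and 6 lower of 23 (rescaled 14 and 4). The receptor Tlr2 for bacterial lipoproteins went from 20.9 and 18.4 to 439 and 402 TPM, Tlr3 for double-stranded RNA from 3.76 and 3.43 to 103 and 96.4 TPM and Tlr7 for single-stranded RNA from 59.9 and 62.5 to 327 and 347 TPM. Tlr2 followed LPS (mean 509.7 TPM, against 18.7 TPM with IFNb) and Tlr3 followed IFNb (147 TPM, against 10.1 TPM with LPS). The shared adaptor Myd88 went from 35.3 and 33.7 to 199 and 203 TPM and was above all 3 other groups. Lower were the receptor Tlr13 for bacterial ribosomal RNA (213 and 179, then 54.3 and 55.2 TPM, rescaled -1.09), the kinases Irak1 (68.7 and 80.3, then 25.9 and 29.3 TPM, rescaled -0.68) and Irak4 (27.7 and 24.8, then 8.07 and 9.63 TPM, rescaled -0.78), and the bridging adaptor Ticam2 (27.7 and 28.6, then 7.24 and 10.3 TPM, rescaled -0.91). These 4 stayed lower after rescaling. Tlr4 was at 44.1 and 39.9 TPM in saline and 21.9 and 25.3 TPM with LPS+IFNb, called lower as deposited (-0.81 ± 0.13, adjusted p = 0.00169) and not after rescaling (-0.10, adjusted p = 0.627).

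In the NF-kB list 16 of 25 rose and 6 fell (median 1.06, rescaled 1.78). The precursors Nfkb1 and Nfkb2 went from 41.6 and 51.98 to 305 and 336 TPM and from 14.4 and 20.5 to 209 and 219 TPM, and the c-Rel gene Rel from 13.7 and 13.9 to 71.2 and 91.9 TPM. The kinase Ripk2, which serves the NOD receptors, went from 7.47 and 6.64 to 104 and 97.5 TPM. Tab1, the partner of the kinase TAK1, fell from 6.94 and 8.52 to 0.968 and 1.23 TPM (rescaled -1.52, adjusted p = 0.00021), as did the alternative-pathway kinase Map3k14 from 3.38 and 5.55 to 0.670 and 1.38 TPM (rescaled -0.93, adjusted p = 0.0173).

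AP-1 and immediate-early genes rose in 15 and fell in 2 of 23 cases (median 1.58, rescaled 2.19). Junb went from 51.3 and 66.2 to 569 and 537 TPM and Batf2, a partner of IRF1, from 2.21 and 2.16 to 94.01 and 91.8 TPM. Jun itself fell, from 125 and 170.3 to 22.5 and 17.5 TPM (-2.81 ± 0.24, adjusted p = 0.000101, rescaled -2.09), with the LPS libraries at a mean of 20.04 TPM and the IFNb libraries at 148 TPM. The saline libraries lay at the IFNb level and the LPS+IFNb libraries at the LPS level.

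Feedback inhibitors rose in 25 and fell in 5 of 35 cases (median 2.52, rescaled 3.18), and 7 were above all 3 other groups. Il10, the anti-inflammatory cytokine, went from 0.323 and 0.152 to 159 and 168 TPM (7.06 ± 0.13, adjusted p = 3.16e-07). Its means were 25.8 TPM with LPS and 16.3 TPM with IFNb, both far below the LPS+IFNb libraries. Il1rn, the interleukin 1 receptor antagonist, went from 149 and 178 to 5377 and 5100.1 TPM (4.999 ± 0.14, adjusted p = 1.06e-06), also above the single agents (1659 and 866 TPM). Whereas Il1b was lower with LPS+IFNb than with LPS, its antagonist was higher by 1.66 ± 0.14 (adjusted p = 0.000463). The NF-kB inhibitors Nfkbia and Nfkbiz went from 42.9 and 49.8 to 984 and 975 TPM and from 4.03 and 5.76 to 278 and 279 TPM. Socs1, which blocks JAK kinases, went from 0.344 and 0.936 to 77.4 and 79.01 TPM (5.62 ± 0.17, adjusted p = 1.38e-06), while Socs6 fell from 75.8 and 60.4 to 16.6 and 17.6 TPM (rescaled -1.21, adjusted p = 0.000898) and the linear-ubiquitin protease Otulin from 47.9 and 44.8 to 17.3 and 17.7 TPM (rescaled -0.65, adjusted p = 0.00414).

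Effector enzymes changed in opposite directions within the list of arginine, nitric oxide, itaconate and prostaglandin genes, 10 higher and 7 lower of 22 (rescaled 12 and 3). Nos2, the inducible nitric oxide synthase, went from 0.0741 and 0.116 to 244 and 275 TPM (7.89 ± 0.32, adjusted p = 5.53e-06), with 21.9 and 45.3 TPM with LPS and 11.04 and 7.92 TPM with IFNb. LPS+IFNb was above LPS by 2.996 ± 0.32 (adjusted p = 0.00112). Gch1, which makes the cofactor of that enzyme, went from 11.6 and 11.9 to 123 and 121 TPM. Acod1, the enzyme that makes itaconate, went from 8.32 and 10.01 to 1948 and 2089 TPM (7.64 ± 0.11, adjusted p = 1.43e-07), and the prostaglandin synthase Ptgs2 from 1.45 and 2.78 to 351 and 385 TPM, near its LPS mean of 472 TPM. Lower members included the leukotriene A4 hydrolase gene Lta4h (60.4 and 57.7, then 20.9 and 18.6 TPM, rescaled -0.82), the prostaglandin D2 synthase Hpgds (113 and 115, then 26.7 and 40.2 TPM, rescaled -1.05) and Ptgs1 (12.96 and 15.6, then 5.56 and 4.04 TPM, rescaled -0.75). These 3 were also lower after rescaling, and Alox5ap was not (-1.01 as deposited, rescaled -0.28, adjusted p = 0.103).

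Antigen presentation genes differed by class. Of 23 genes of MHC class I, peptide loading and the immunoproteasome 20 rose (median 1.82, rescaled 2.54). Of the 23, 18 were above LPS alone and 0 below it (rescaled 20 and 0), while 3 were above and 4 below IFNb alone (rescaled 7 and 1). The peptide transporter Tap1 went from 44.5 and 45.9 to 643 and 674 TPM (3.83 ± 0.07, adjusted p = 2.62e-07) and the immunoproteasome subunits Psmb8 and Psmb10 from 93.9 and 90.7 to 416 and 402 TPM and from 40.1 and 37.3 to 355 and 333 TPM. The 2 lower calls, the chaperone Calr (-0.74) and the disulfide isomerase Pdia3 (-0.61), were lost on rescaling (-0.01 and 0.12). None of 11 class II genes rose and 3 fell, and on rescaling 5 were higher and none lower, so their direction depended on the scale. Their median was -0.23 (rescaled 0.50), above that of all genes at both scalings (-0.62 and 0.01). H2-Eb2 was called lower as deposited (adjusted p = 0.0046) and not after rescaling (-0.56, adjusted p = 0.0882), and stood at 5.66 and 5.42 TPM in saline and 1.42 and 2.74 TPM with LPS+IFNb.

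Costimulatory and checkpoint molecules rose in 15 and fell in 3 of 21 cases (median 1.49, rescaled 2.22). Cd40, the receptor through which T cells license macrophages, went from 8.92 and 9.61 to 697 and 917 TPM (6.29 ± 0.16, adjusted p = 7.08e-07), Cd86 from 8.51 and 11.9 to 163 and 164 TPM, and the inhibitory ligand Cd274, which encodes PD-L1, from 66.3 and 64.6 to 626 and 648 TPM. Cd40 and Cd86 were above all 3 other groups, and Cd274 was below IFNb alone (mean 873 TPM) as deposited and not after rescaling (-0.46 and -0.11, adjusted p = 0.421). Vsir, the checkpoint receptor VISTA, fell from 227 and 267 to 31.3 and 32.1 TPM (-2.92 ± 0.10, adjusted p = 2.14e-06, rescaled -2.19), and Havcr2, which encodes TIM-3, from 27.3 and 18.4 to 3.66 and 3.99 TPM (rescaled -1.63). In the list of adhesion molecules 11 rose and 9 fell of 23 (rescaled 14 and 3). The integrin ligands Icam1 and Vcam1 went from 17.4 and 19.5 to 303 and 399 TPM and from 0.864 and 1.09 to 74.1 and 101 TPM, with Icam1 below its LPS mean of 796 TPM. The integrin chains Itga6 and Itgb5 fell from 131 and 144 to 38.9 and 39.9 TPM and from 205 and 217 to 46.8 and 63.1 TPM (rescaled -1.05 and -1.21), and Itgb2, the chain shared by leukocyte integrins, had a difference of -0.50 as deposited and 0.23 rescaled.

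Among 28 inflammasome and cell death genes 15 rose and 9 fell (median 1.11, rescaled 1.84). Among those that rose, the nucleic acid sensor Zbp1 went from 10.2 and 9.59 to 531 and 581 TPM (5.67 ± 0.10, adjusted p = 2.45e-07), the necroptosis executor Mlkl from 12.6 and 10.6 to 213 and 225 TPM and Casp4, the caspase that binds cytosolic LPS, from 22.2 and 24.1 to 438 and 415 TPM. Naip1, a receptor for bacterial needle proteins with close paralogs, fell from 7.29 and 7.73 to 0.230 and 0.335 TPM (rescaled -2.30, adjusted p = 3.49e-05), and Bax went from 123 and 119.9 to 60.4 and 62.2 TPM (rescaled -0.25, adjusted p = 0.0661). Of 28 complement and coagulation genes 13 rose and 6 fell (median 0.65, rescaled 1.37). Cfb, of the alternative complement pathway, went from 24.9 and 16.3 to 472 and 636 TPM. The anticoagulant receptor Thbd fell from 22.2 and 24.8 to 1.47 and 0.573 TPM (rescaled -3.07, adjusted p = 6.27e-05) while Procr, which acts with thrombomodulin in protein C activation, rose from 18.97 and 19.1 to 71.9 and 69.98 TPM.

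Iron, metal and antioxidant genes moved both ways, 13 higher and 15 lower of 30 (rescaled 14 and 7). Hamp, which encodes hepcidin, the hormone that closes the iron exporter, went from 0.519 and 0.481 to 187 and 173 TPM (6.91 ± 0.12, adjusted p = 2.41e-07), against 16.5 and 18.5 TPM with LPS and 0.269 and 0.239 TPM with IFNb. The siderophore binder Lcn2 went from 2.09 and 2.51 to 203 and 151 TPM and the superoxide dismutase Sod2 from 26.8 and 28.6 to 241 and 237 TPM. The transferrin receptor Tfrc, the entry route of iron, fell from 114 and 103 to 10.5 and 13.3 TPM (-3.09 ± 0.20, adjusted p = 3.54e-05, rescaled -2.38), as did Steap3, the reductase of transferrin iron, from 45.1 and 50.6 to 11.3 and 12.8 TPM (rescaled -1.20), catalase (Cat) from 78.9 and 70.9 to 20.3 and 18.04 TPM (rescaled -1.20) and the glutathione enzyme Gclc from 16.9 and 17.2 to 3.51 and 2.94 TPM (rescaled -1.46).

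**Figure D3:**
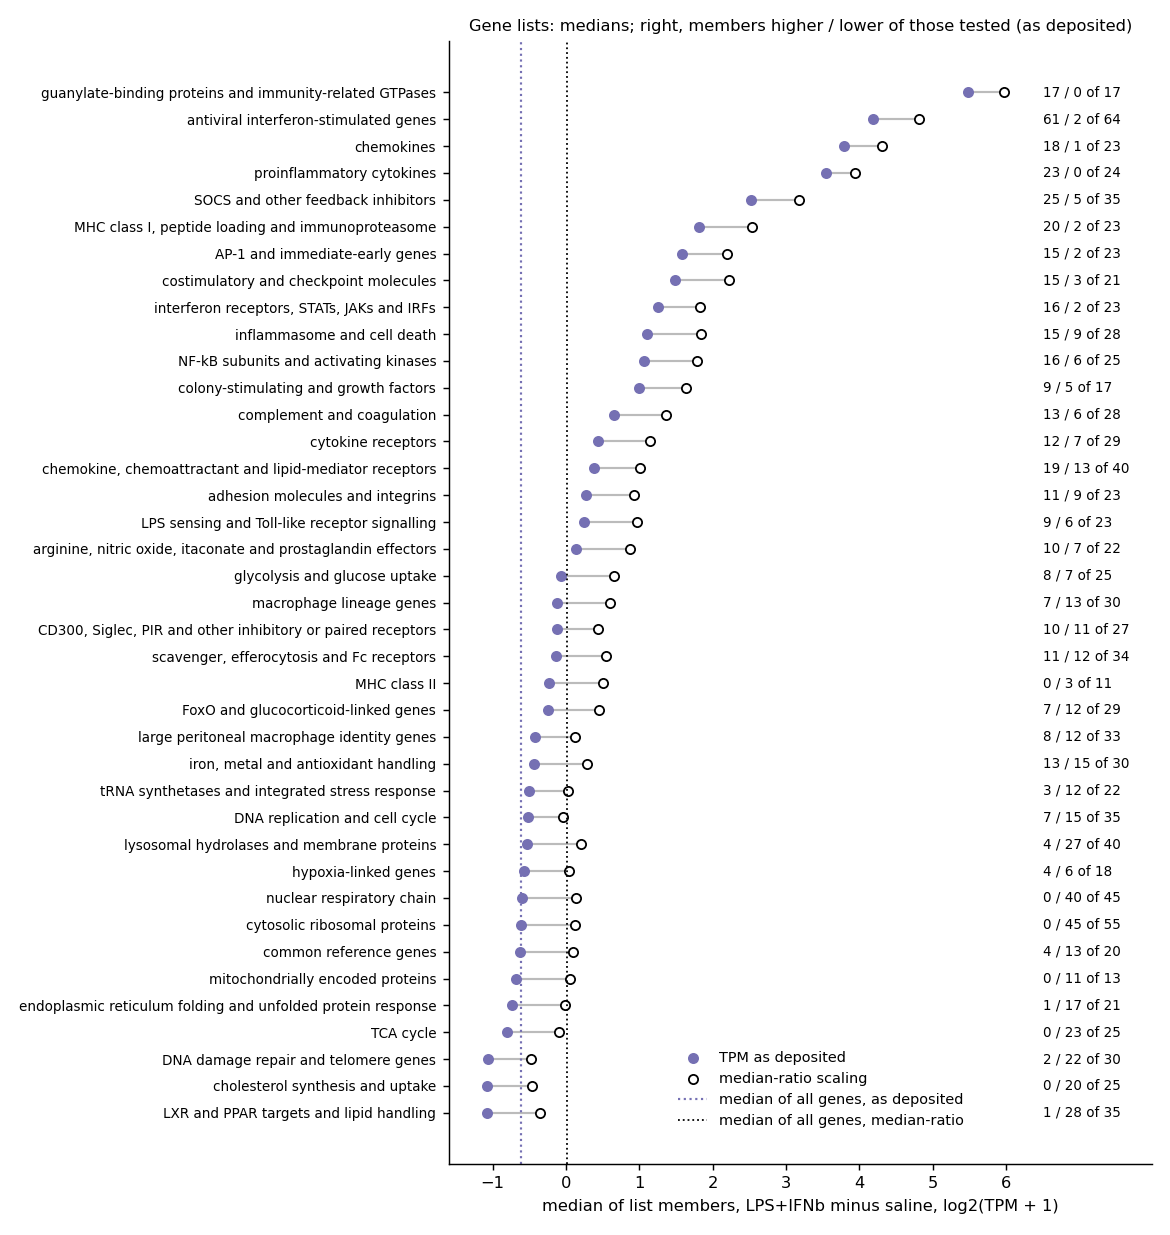
Median difference between LPS+IFNb and saline in log2(TPM + 1) (horizontal axis) of the tested members of each of the 39 gene lists (vertical axis), as deposited (filled) and rescaled (open), with the medians of all genes as dotted lines and, at the right, members called higher / lower of those tested as deposited. Medians run from 5.49 for the guanylate-binding proteins down to -1.08 for the lipid lists, and the lists near the bottom as deposited lie close to 0 when rescaled, except those of lipids, cholesterol and DNA repair (-0.35 to -0.48).

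The 12 largest falls, each also called after rescaling, included 2 surface receptors, 2 transcription factors and 2 enzymes of metabolism. Arhgap19, a GTPase-activating protein, went from 65.9 and 57.9 TPM in saline to 0.982 and 0.920 TPM with LPS+IFNb (-5.01 ± 0.27, adjusted p = 1.80e-05, rescaled -4.44). Sesn1, a sestrin that restrains mTORC1, went from 48.8 and 41.3 to 0.716 and 0.837 TPM (-4.69 ± 0.15, adjusted p = 1.96e-06, rescaled -4.14), and Fbxo32, a subunit of a ubiquitin ligase, from 44.6 and 45.8 to 0.819 and 0.797 TPM (-4.67 ± 0.13, adjusted p = 9.30e-07, rescaled -4.12). Cebpa, a transcription factor of the myeloid lineage, went from 145 and 158 to 4.85 and 5.53 TPM (-4.62 ± 0.17, adjusted p = 3.33e-06, rescaled -3.94). The libraries of a group lay close to each other in these 4, and those with LPS+IFNb were under 1 TPM in all but Cebpa.

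The chemokine receptor Cxcr4 went from 192 and 159.5 to 9.97 and 7.22 TPM (-4.21 ± 0.16, adjusted p = 4.52e-06, rescaled -3.51) and Cd300lb, an activating receptor of the CD300 family, from 198 and 215 to 12.6 and 11.6 TPM (rescaled -3.28). Tsc22d3, a glucocorticoid-induced regulator also known as GILZ, went from 140.4 and 136 to 7.82 and 8.40 TPM (-3.93 ± 0.09, adjusted p = 6.46e-07, rescaled -3.23), and Arl11, an ARF-like GTPase, from 169.7 and 144 to 6.22 and 6.07 TPM (rescaled -3.77). Idh1, the cytosolic isocitrate dehydrogenase that makes NADPH, was the most abundant of the 12 in saline and went from 361 and 339 to 21.7 and 26.7 TPM (-3.81 ± 0.13, adjusted p = 2.03e-06, rescaled -3.08). The last 3 were the histone deacetylase Hdac5 (53.9 and 82.99, then 4.85 and 2.61 TPM, rescaled -3.22), the clock-output factor Tef (28.6 and 39.9, then 1.52 and 1.67 TPM, rescaled -3.14) and Sephs2, which makes the selenium donor of selenoproteins (56.7 and 47.2, then 3.36 and 3.02 TPM, rescaled -2.998). The IFNb libraries of Tef lay far apart, at 2.83 and 13.4 TPM. Its saline and LPS+IFNb libraries did not overlap, which the choice of the 12 required of each gene.

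Beside the single agents the falls differed in which agent came close to the combined level. Fbxo32 was at a mean of 0.494 TPM with LPS and 35.2 TPM with IFNb, and Tsc22d3 and Arl11 likewise were lower with LPS (7.49 and 7.67 TPM) than with IFNb (53.96 and 66.4 TPM). Idh1 had the opposite order, 99.03 TPM with LPS and 41.9 TPM with IFNb. Arhgap19, Sesn1, Cebpa, Hdac5, Idh1 and Sephs2 were called below all 3 other groups as deposited, and all but Idh1 also after rescaling.

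**Figure D4:**
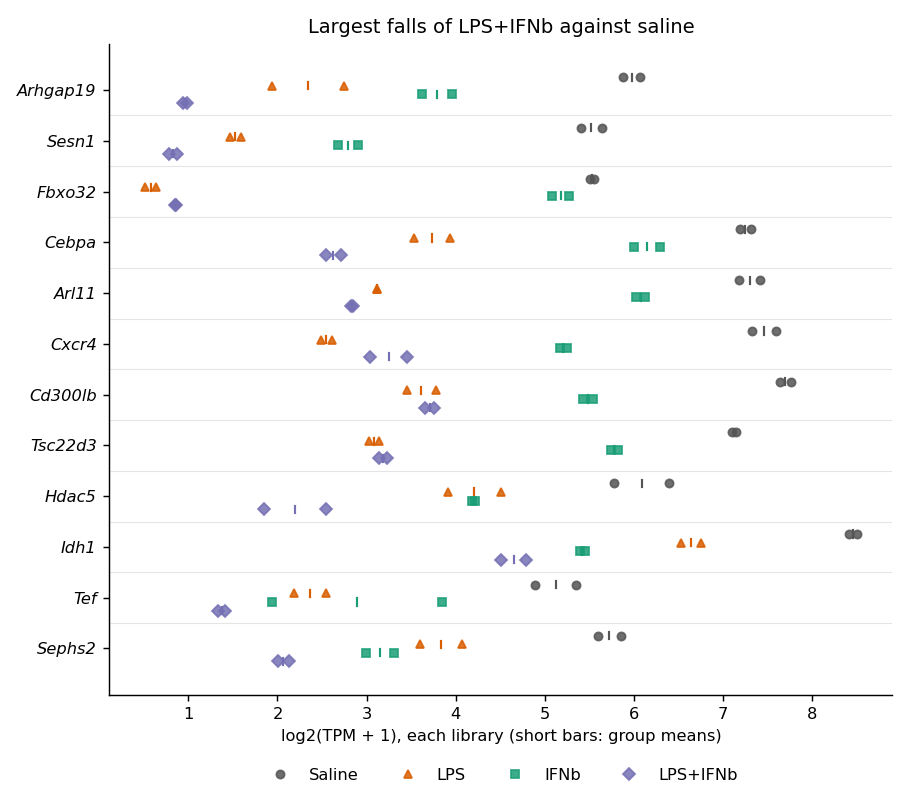
Level in each of the 8 libraries (horizontal axis, log2(TPM + 1), points by group, short bars at group means) of the 12 genes with the largest fall in LPS+IFNb against saline. The saline libraries lie to the right for every gene, and for Fbxo32 the IFNb libraries lie near saline while the LPS libraries lie with LPS+IFNb. The choice of genes required no overlap between saline and LPS+IFNb.

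Macrophage lineage genes were divided: 7 rose and 13 fell of 30, and after rescaling 17 were higher and 6 lower. Among the falls were transcription factors. Beside Cebpa, Pparg, a nuclear receptor of alveolar and lipid-handling macrophages, went from 79.1 and 65.4 to 6.75 and 8.35 TPM (-3.10 ± 0.18, adjusted p = 2.27e-05, rescaled -2.40), and Tfeb, the regulator of lysosomal genes, from 67.6 and 76.2 to 5.40 and 7.80 TPM (-3.28 ± 0.27, adjusted p = 0.0001, rescaled -2.59). The M-CSF receptor Csf1r was at 309.7 and 324 TPM and then 137 and 149.8 TPM (-1.14 ± 0.08, adjusted p = 6.08e-05, rescaled -0.41). With Cebpa, all 4 were lower at both scalings. Higher were the Fc receptor Fcgr1 (62.2 and 54.3, then 487 and 491 TPM), which followed IFNb (mean 715 TPM, against 49.1 TPM with LPS), and the interferon-linked factor Irf8 (110.2 and 129, then 311 and 472 TPM). The marker Adgre1 was not called as deposited (-0.27 ± 0.14, adjusted p = 0.126) and was called higher after rescaling (0.46, adjusted p = 0.0491). In the list of large peritoneal macrophage identity genes 8 rose and 12 fell of 33 (rescaled 9 and 4), with Cebpb, a factor of these and of inflammatory macrophages, at 99.9 and 115 TPM and then 459 and 448 TPM and the retinoid receptor Rxra at 18.03 and 33.01 TPM and then 3.24 and 3.89 TPM (rescaled -1.83). Within the same family of factors Cebpa thus fell and Cebpb rose.

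Genes linked to glucocorticoids and to the FoxO factors, which are active when growth signals are low, included Sesn1, Fbxo32 and Tsc22d3 among the largest falls, but the list itself was divided, 7 higher and 12 lower of 29 (rescaled 13 and 11). The autophagy gene Gabarapl1 fell from 159 and 161 to 30.9 and 29.2 TPM (-2.37 ± 0.09, adjusted p = 3.08e-06, rescaled -1.65). Ccng2, a cyclin G gene, rose from 33.4 and 34.3 to 150.3 and 147 TPM, and Errfi1, an inhibitor of EGF receptor signalling, from 3.34 and 4.40 to 92.9 and 76.6 TPM. Both were above all 3 other groups. The glucocorticoid receptor gene Nr3c1 rose from 31.5 and 34.4 to 51.5 and 50.04 TPM (0.61 ± 0.09, adjusted p = 0.000863), while its target Tsc22d3 fell.

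Receptors for chemokines, chemoattractants and lipid mediators moved both ways: 19 rose and 13 fell of 40 (rescaled 24 and 7). Those lower at both scalings included, beside Cxcr4, the lysophosphatidic acid receptor Lpar6 (21.7 and 21.6, then 0.788 and 0.874 TPM, rescaled -3.08), the fractalkine receptor Cx3cr1 (5.46 and 5.61, then 0.228 and 0.463 TPM, rescaled -1.86) and the monocyte receptor Ccr2 (34.1 and 31.5, then 5.34 and 8.02 TPM, rescaled -1.48). Higher were the adenosine receptors Adora2a (2.36 and 3.09, then 55.3 and 59.4 TPM) and Adora2b (1.11 and 1.31, then 59.5 and 52.4 TPM), which restrain macrophage activation, the atypical receptor Ccrl2 (51.5 and 47.5, then 827 and 809.9 TPM) and the fatty acid receptor Gpr84 (0.786 and 0.751, then 16.4 and 18.4 TPM, against a mean of 63.8 TPM with LPS alone). Of 29 cytokine receptors 12 rose and 7 fell (rescaled 19 and 4). Il15ra, which presents interleukin 15 on the cell surface, went from 8.61 and 6.71 to 312 and 366 TPM and rose with its ligand gene Il15. Il6ra, the interleukin 6 receptor, fell from 21.7 and 32.1 to 5.12 and 5.91 TPM (rescaled -1.40, adjusted p = 0.000533) while Il6 rose.

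Scavenger, efferocytosis and Fc receptors rose in 11 and fell in 12 of 34 cases (rescaled 17 and 3). Fcgr4, an activating Fc receptor, went from 109 and 98.4 to 487 and 499 TPM, near its IFNb mean of 618 TPM, and the C-type lectin Clec4e, which senses mycobacterial glycolipid, from 22.6 and 33.2 to 444 and 460.4 TPM, below its LPS mean of 906 TPM. Gas6, a bridge between dying cells and macrophages, fell from 10.7 and 11.7 to 3.29 and 4.01 TPM (rescaled -0.76, adjusted p = 0.00375). The abundant lipid receptors Cd36 (1190.2 and 1048, then 532 and 547 TPM) and Trem2 (979.9 and 890.3, then 454 and 497 TPM) were called lower as deposited and not after rescaling (-0.31, adjusted p = 0.0739, and -0.24, adjusted p = 0.156). Among 27 inhibitory and paired receptors 10 rose and 11 fell (rescaled 13 and 3). The inhibitory Cd300a fell with Cd300lb, from 221 and 262 to 43.6 and 48.9 TPM (rescaled -1.63), and Slamf7 rose from 262 and 211 to 1185 and 1439 TPM.

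Lipid genes were mostly lower, in part at both scalings. Of 35 genes of LXR and PPAR targets and lipid handling 1 rose and 28 fell (rescaled 3 and 15), with a median of -1.08 (rescaled -0.35). The lipid droplet protein gene Plin2, among the most abundant of the list, went from 3629.8 and 3734 to 1265 and 1208 TPM (-1.57 ± 0.07, adjusted p = 8.16e-06, rescaled -0.84), and Soat1, which esterifies cholesterol, from 853 and 833 to 259 and 248 TPM (rescaled -0.995). The fatty acid oxidation enzyme Acadm fell from 42.3 and 39.6 to 9.40 and 10.2 TPM (rescaled -1.26). The one rise, of Dgat2, was from 0.165 and 0.0445 to 0.739 and 0.834 TPM, stayed under 1 TPM and was not called without either LPS+IFNb library (adjusted p = 0.0674 and 0.0898) or Saline replicate 2 (0.0906). Cholesterol synthesis and uptake had 20 of 25 lower and none higher (rescaled 11 lower and 2 higher), with a median of -1.08 (rescaled -0.47). Msmo1 went from 90.7 and 83.95 to 19.8 and 19.97 TPM (-2.08 ± 0.09, adjusted p = 6.70e-06, rescaled -1.36), Fdft1, which makes squalene, from 9.84 and 9.17 to 1.94 and 1.89 TPM (rescaled -1.26), and Dhcr7, of the last step, from 23.8 and 22.2 to 5.56 and 3.38 TPM (rescaled -1.50).

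Lysosomal genes fell as deposited, 27 of 40 against 4 higher, and after rescaling 14 were higher and 6 lower (median -0.53, rescaled 0.20). Ctsd, the cathepsin D gene and one of the most abundant transcripts, went from 12544 and 11195 to 5123 and 5609.8 TPM (-1.14 ± 0.11, adjusted p = 0.00015, rescaled -0.41). The calcium channel Mcoln1 and the cholesterol exporter Npc1, both of the lysosomal membrane, fell from 104 and 115 to 36.3 and 37.2 TPM and from 121 and 151 to 49.7 and 50.6 TPM (rescaled -0.82 and -0.69). Ctsc, which activates granule proteases, rose from 144 and 131 to 711 and 852 TPM and followed IFNb (mean 747 TPM, against 361 TPM with LPS). Npc2, the soluble partner of Npc1, was called higher (743 and 696, then 978 and 943 TPM).

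Central metabolism changed unevenly. No TCA cycle gene rose and 23 of 25 fell as deposited, with 3 higher and 6 lower after rescaling (median -0.81, rescaled -0.10). Idh1, described above, belongs to this list. Idh2, its mitochondrial counterpart, went from 35.9 and 32.7 to 12.9 and 11.5 TPM (rescaled -0.72), the pyruvate dehydrogenase subunit Pdha1 from 40.03 and 40.3 to 16.1 and 17.3 TPM (rescaled -0.51) and the succinate dehydrogenase subunit Sdha from 326 and 312 to 121 and 147 TPM (rescaled -0.52). Against LPS alone 20 of the 25 were lower (rescaled 5). Nuclear genes of the respiratory chain had 40 of 45 lower as deposited, but after rescaling 4 were lower and 11 higher (median -0.60, rescaled 0.14), and the 13 mitochondrially encoded genes had 11 lower, then 0 lower and 1 higher (median -0.68, rescaled 0.06). The medians of both sets were close to that of all genes at either scaling. Ndufb10 kept its fall on rescaling (99.8 and 102, then 43.8 and 47.2 TPM, rescaled -0.41), and mt-Cytb did not (1928 and 1693, then 1016 and 1009.7 TPM, rescaled -0.10, adjusted p = 0.554).

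Glycolysis genes had 8 higher and 7 lower of 25 (rescaled 10 and 1), with a median of -0.07 (rescaled 0.66). The transporter Slc2a6 went from 6.80 and 7.06 to 220.4 and 222 TPM (4.81 ± 0.11, adjusted p = 5.96e-07), near its LPS mean of 234 TPM. Pfkfb3 and Pfkfb4, related enzymes that set the level of an activator of glycolysis, moved apart: Pfkfb3 rose from 34.9 and 46.6 to 198 and 212 TPM and Pfkfb4 fell from 14.4 and 15.7 to 2.46 and 2.22 TPM (rescaled -1.65). Hypoxia-linked genes had 4 higher and 6 lower of 18 (rescaled 5 and 4). The oxygen-regulated factors also moved apart, Hif1a from 48.2 and 49.1 to 263 and 269 TPM (2.43 ± 0.07, adjusted p = 1.38e-06) and Epas1, which encodes HIF-2 alpha, from 32.1 and 49.9 to 12.1 and 10.6 TPM (-1.74 ± 0.23, adjusted p = 0.000607, rescaled -1.03).

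Genes of translation moved with the bulk of genes. Of 55 cytosolic ribosomal protein genes 45 were lower as deposited and none higher, against 2 lower and 6 higher after rescaling (median -0.62, rescaled 0.12). Rpl3 had one of the 2 falls that rescaling kept (589 and 539, then 265 in each TPM, rescaled -0.35, adjusted p = 0.0309), and ribosomal protein genes have many pseudogenes that share their reads. Of 22 tRNA synthetase and integrated stress response genes 3 rose and 12 fell (rescaled 10 and 9). Wars, the interferon-inducible tryptophan synthetase, rose from 23.7 and 25.6 to 101 and 109 TPM, whereas the glutamyl-prolyl and seryl synthetases Eprs and Sars fell from 42.3 and 41.9 to 12.8 and 13.6 TPM and from 67.3 and 82.03 to 24.5 and 20.6 TPM (rescaled -0.89 and -0.97). In the list of endoplasmic reticulum folding 17 of 21 were lower and 1 was higher (rescaled 3 and 5). The one higher was Hspa5, the main chaperone of that compartment, at 359 and 289 TPM and then 593 and 615 TPM.

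Cell cycle genes had 7 higher and 15 lower of 35 (rescaled 10 and 10). The cyclin-dependent kinases Cdk4 and Cdk2 fell from 221 and 208 to 43.8 and 45.8 TPM and from 12.1 and 13.7 to 2.59 and 1.94 TPM (rescaled -1.51 and -1.48), and the replication helicase subunit Mcm3 from 20.5 and 22.03 to 3.24 and 2.59 TPM (rescaled -1.87). The cyclin Ccnd2 rose from 1.12 and 1.82 to 106 and 121 TPM (5.54 ± 0.15, adjusted p = 1.04e-06), the cyclin-dependent kinase inhibitor Cdkn1a from 48.4 and 60.7 to 712 and 735 TPM (3.71 ± 0.16, adjusted p = 6.47e-06), and the proliferation marker Mki67 from 1.54 and 1.39 to 15.3 and 18.2 TPM. Mki67 was as high with LPS alone (mean 19.3 TPM) and low with IFNb alone (0.712 TPM). DNA damage repair and telomere genes had 22 of 30 lower and 2 higher, and kept 16 lower and 4 higher after rescaling (median -1.07, rescaled -0.48). Parp1 and Rad50, which act at DNA breaks, fell from 37.4 and 42.5 to 8.02 and 9.97 TPM and from 16.4 and 19.4 to 2.10 and 3.06 TPM (rescaled -1.34 and -1.78), and the checkpoint kinase Chek2 from 7.19 and 7.27 to 0.741 and 0.793 TPM (rescaled -1.72). Mdm2, the ubiquitin ligase that restrains p53, rose from 110.3 and 117 to 357 and 368 TPM.

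Genes often used as references changed too: 4 of 20 rose and 13 fell (rescaled 4 and 5). Actb went from 6993 and 7622 to 19207 and 20561 TPM (1.44 ± 0.09, adjusted p = 2.75e-05) and Actg1 from 5252 and 4995 to 10847 and 10292 TPM, both higher at both scalings.

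The combined group went beyond every other group in 236 genes that were called above saline, LPS and IFNb (1.81% of those tested) and in 1411 called below all 3 (10.8%). After rescaling these were 512 and 223. A group left with 1 library makes a difference harder to call, so a drop in these counts does not point to any single library. Both counts fell when any library of LPS+IFNb, IFNb or LPS was left out. Without LPS+IFNb replicate 1 they were 136 and 515, without LPS+IFNb replicate 2 126 and 667, without IFNb replicate 1 157 and 596, and without IFNb replicate 2 149 and 543. Without LPS replicate 1 or 2 the count below all 3 was 713 or 731. The 10 genes furthest above their nearest other group included Hamp, Ifnb1, Nos2, Il10, Ccl7 and Il1rn, described above. Hamp was above its nearest group, LPS, by 3.29 ± 0.12 (adjusted p = 3.89e-05). The other 4 were Upp1, which degrades uridine (1.15 and 0.646 TPM in saline, 146 and 124 TPM with LPS+IFNb), Plagl1, an imprinted zinc-finger factor (0.711 and 1.17, then 39.6 and 63.3 TPM), Rgcc, a regulator of the cell cycle (8.41 and 10.6, then 137 and 120.0 TPM), and the semaphorin Sema4c (1.02 and 1.29, then 70.2 and 66.5 TPM). Upp1 was at 17.4 TPM with LPS and 33.1 TPM with IFNb, and Plagl1 at 8.35 and 0.674 TPM, so Upp1 was raised with each agent alone and Plagl1 with LPS alone.

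The 10 genes furthest below all 3 others were mostly at middle levels with either agent alone. Slc43a2, a transporter of neutral amino acids, stood at 84.4 and 141 TPM in saline, 34.9 and 29.6 TPM with LPS, 29.8 and 27.1 TPM with IFNb and 6.99 and 9.45 TPM with both. Crat, the carnitine acetyltransferase, stood at 64.6 and 68.6, then 22.7 and 25.3, 32.3 and 26.4 and 5.87 and 11.7 TPM in the same order, and Arrb1, which encodes beta-arrestin 1, at 28.9 and 65.1, 11.9 and 14.1, 9.74 and 11.05 and 2.30 and 4.05 TPM. In these 3 each agent alone gave a middle level and the combination the lowest. In Hyal2, a hyaluronidase, the LPS+IFNb libraries lay further apart (7.33 and 2.58 TPM, from 26.3 and 43.9 TPM in saline). Ehmt1, a histone H3 lysine methyltransferase, went from 17.8 and 23.9 to 2.61 and 3.48 TPM, the V-ATPase assembly factor Ccdc115 from 28.9 and 31.04 to 4.04 and 4.56 TPM and the actin regulator Abi3 from 42.3 in each to 6.25 and 7.55 TPM. Hdac5, Arhgap19 and Mcm3, described above, complete the 10, and after rescaling all of them but Hyal2 were still called below all 3 others.

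**Figure D5:**
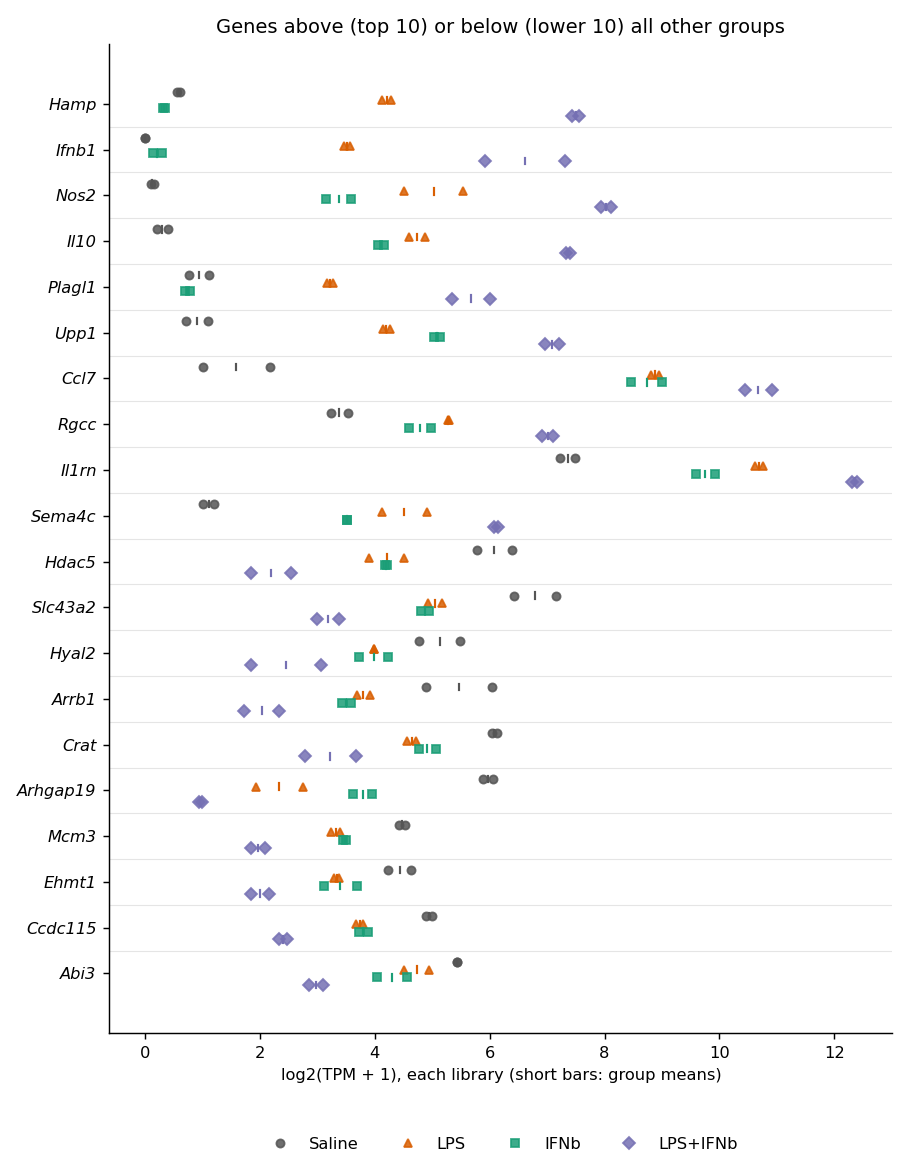
Level in each of the 8 libraries (horizontal axis, log2(TPM + 1), points by group, short bars at group means) of the 10 genes furthest above and the 10 furthest below all 3 other groups. In the upper 10 the LPS+IFNb points lie to the right of all others, and in the lower 10 to the left, with LPS and IFNb alone in between for most genes.

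The transcript that held most of a gene's TPM changed in few genes. Of 2610 genes with at least 20 TPM in each of the 4 libraries and 2 or more annotated transcripts, 7 had a different leading transcript with a shift of at least 30 percentage points. For Cggbp1, a CGG-repeat binding protein whose total rose from 50.9 and 48.03 to 156 and 179 TPM, the coding transcript Cggbp1-201 held 86.6% and 85.4% in saline and 48.3% and 39.8% with LPS+IFNb, and the rest was the retained-intron transcript Cggbp1-202, which begins 706 bases away. For Fgd4, an exchange factor for CDC42, the retained-intron transcript Fgd4-205 held 24.1% and 43.6% in saline and 81.9% and 84.1% with LPS+IFNb, while the total fell from 48.3 and 60.6 to 21.7 and 26.4 TPM (rescaled -0.43). For Ift46, of intraflagellar transport, the short coding transcript Ift46-209 held 61.8% and 61.1% in saline and was listed at 0 in one treated library and 22.2% in the other. In Lipa, Pcbd2 and Fkbp2 the 2 leading transcripts differ in length by few bases (2969 and 2965 in Lipa, 546 and 544 in Pcbd2, 642 and 664 in Fkbp2), and the saline libraries already disagreed, at 76.2% and 53.8% in Lipa, so that shares between such near-identical transcripts are uncertain. No test was made of these shares.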

How the data were processed

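The labels describe 8 libraries of peripheral macrophages made with an Illumina TruSeq RNA kit. The authors deposited 1 file of TPM values per transcript for each library. Per the submitters' processing notes, kallisto and mm10 were used, with the version of kallisto and its transcript set not given in the sources used here. Each file held 88198 transcripts, of which 86119 matched GENCODE M21. The other 2079, with 1.01% to 1.95% of TPM, were left out. TPM was summed per gene (30284 genes) without rescaling, and the 13009 genes that reached 1 TPM in 2 or more libraries were kept. TPM keeps no depth, so no counting error can be given.

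Differences were fitted in limma 3.58.1 (R 4.3.3; trend over mean level) on log2(TPM + 1) with 1 mean per group over all 8 libraries (4 residual and 2.54 prior degrees of freedom), with Benjamini-Hochberg adjustment over the 13009 genes and a threshold of 0.05. A value given as ± is the SE of that fit. In simulated data of 13009 genes, with 100 changed by 1 and 100 by 2 on the log2 scale, 53 and 93 were called. There were 8 false calls among the unchanged genes. The simulation changed a far smaller share of genes than the 69.4% called here and held no shift of the bulk of genes. Its figures therefore do not carry over to these data. Named genes include the 12 largest rises, the 12 largest falls (also called after rescaling) and the 10 genes furthest above and below all 3 other groups. Each of these had to have a mean log2 of at least 3 over the 4 libraries. No overlap between the saline and LPS+IFNb libraries was also required of them. The rest are up to 4 members per list and direction, 6 genes of transcript use, 22 genes of the pathways, and marker genes. The genes, the 39 lists and the comparison were chosen with earlier results of these data known. Python 3.11.15 with pandas 2.3.3 and matplotlib 3.10.9 was used for the rest. Alternatives covered the scaling, pseudocount, filter, threshold, libraries in the fit and a replicate block. Some named genes are not reported here.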

Additional observations from a re-analysis of the deposited data

How the results depend on the processing

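With 1 library left out at a time, the genes called against saline numbered 7844 to 8836 (1736 to 2086 higher, 6061 to 6899 lower). The count against LPS alone ran from 2725 to 5008 (964 to 1524 higher, 1673 to 3484 lower), and that against IFNb alone from 2485 to 5555 (742 to 1230 higher, 1743 to 4325 lower). The genes above all 3 other groups numbered 126 to 267 and those below 515 to 1601. A group left with 1 library is assumed to vary like the others. Against LPS the counts were lowest without a library of LPS or LPS+IFNb, and against IFNb without one of IFNb or LPS+IFNb. Median-ratio scaling gave 3567 genes higher and 3274 lower against saline, 1989 higher and 1368 lower against LPS, and 3211 changed, 1788 higher and 1423 lower against IFNb, with 512 above and 223 below all 3 others. Upper-quartile scaling gave 2076 lower against LPS, 2128 lower against IFNb and 487 below all 3, and no filter on low values gave 916 below all 3. At an adjusted p under 0.01 the counts were 2328 against LPS (893 higher, 1435 lower) and 2413 against IFNb (716 and 1697), with 105 above and 325 below all 3. With a change of at least 2-fold required they were 5270 against saline (1316 and 3954), 1322 against LPS (660 and 662) and 1511 against IFNb (627 and 884), with 61 above and 67 below. With only the libraries of the 2 groups compared in the fit, 8347 genes were called against saline (1848 higher, 6499 lower).

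Of 211 named genes 187 kept direction and side of the threshold under median-ratio scaling, and 14 kept direction but were no longer called. The other 10 changed sign, to 0.46 in Adgre1, 0.06 in Cd9, 0.04 in Fkbp2, 0.24 in Gata6, 0.03 in Ifi27, 0.23 in Itgb2, 0.05 in Lyz2, 0.06 in Pcbd2, 0.12 in Pdia3 and 0.20 in Tgfb1. Of these 10, all but Adgre1 and Gata6 also lost their lower call (adjusted p from 0.0979 in Itgb2 to 0.879 in Ifi27). Adgre1 was called higher after rescaling (adjusted p = 0.0491). Under upper-quartile scaling Adgre1 was at 0.05 and Gata6 at 0.01, and with 1 library left out Gata6 ran from -0.36 to 0.01 (without Saline replicate 2). The call of Dgat2 was lost without LPS+IFNb replicate 1 (adjusted p = 0.0674), LPS+IFNb replicate 2 (0.0898) or Saline replicate 2 (0.0906). Without LPS+IFNb replicate 1 or Saline replicate 1 Calr was not called (0.096 and 0.0821), nor was Pdia3 (0.0931 and 0.091). Tgfb1 was not called without LPS+IFNb replicate 1 or Saline replicate 2 (0.0979 and 0.0572).

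The groups share replicate numbers, and whether libraries of the same number belong together is not in the labels. The correlation of their deviations from the group means was 0.01 between saline and LPS+IFNb. It was 0.14 between saline and LPS, 0.13 between IFNb and LPS+IFNb, and from -0.16 to -0.11 in the other pairs of groups. With 2 libraries per group these values cannot show whether libraries share mice, days or batches. With a replicate block 8909 genes were called against saline (1953 higher, 6956 lower), 4140 against LPS, 4606 against IFNb and 1138 below all 3, and no named gene changed its call against saline. The cause of these shifts was not tested.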
